A study of Mus musculus with 9 samples.

Results

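A set of 9 genes known to mark subcerebral projection neurons of cortical layer 5 were followed across 3 genotypes: Ldb2, Crym, Adcyap1, Diap3, Pcp4, S100a10, Igfbp4, Crim1 and Etv1. The 9 genes were chosen by name, with earlier results of these data known, and all were found among the 24624 genes of the expression table. Of these, 8 matched their own symbol, and 1, Diap3, matched as an older symbol of Diaph3, the name used here. Bulk RNA-seq was performed on cerebral cortex of newborn (P0) mice. The groups were 3 wild-type Fezf2+/+ pups, 4 Fezf2-/- pups and 2 Fezf2-/-; Fezf2-EnR pups, here called EnR pups. All came from crosses of Fezf2+/- mice with Fezf2+/-;Fezf2-EnR mice, and each library came from the cortex of 1 pup. The Fezf2- null allele carries a PLAP reporter knocked into the Fezf2 gene. The Fezf2-EnR transgene sits on a bacterial artificial chromosome under Fezf2 regulatory sequence and makes a repressor form of the protein, in which the engrailed repressor domain is joined to the part of FEZF2 that binds DNA. The EnR pups thus lack endogenous Fezf2 function and carry this repressor.

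Subcerebral projection neurons are the layer 5 neurons that send their axons out of the forebrain, to the spinal cord (corticospinal) and to the tectum (corticotectal). FEZF2 is a zinc-finger transcription factor needed for this fate, and the corticospinal tract does not form in its absence. Among the 9 genes are those of a transcriptional cofactor (Ldb2), a transcription factor (Etv1), a secreted neuropeptide (Adcyap1) and an actin nucleator (Diaph3). Igfbp4 and Crim1 encode secreted or membrane proteins that bind growth factors. Pcp4 encodes a calmodulin-binding peptide, S100a10 a partner of annexin A2, and Crym a protein that binds thyroid hormone.

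The targeted gene was measured first. In Fezf2+/+ the normalized values of Fezf2 were 1232, 1010 and 979. In Fezf2-/- they were 193 to 242 (4 libraries), and in EnR 907 and 1001. It was lower in Fezf2-/- by 2.30 on the log2 scale (SE 0.10, limma adjusted p = 1.38e-06). The Fezf2 level of the EnR libraries was not told apart from that of Fezf2+/+ (log2 difference -0.16, 95% confidence interval -0.44 to 0.11). The table does not separate reads of the transgene from those of the endogenous gene. Depth was 18716575 to 25127623 recovered reads a library. The general cortical neuron genes Neurod6 (11317 to 15315) and Emx1 (376 to 579) were present in every library. Emx1 was itself called lower in Fezf2-/- (log2 difference -0.44, limma adjusted p = 0.0296).

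Some properties of the libraries moved with the groups. A pair of sex-linked genes split the libraries: Xist was at 7895 to 12203 in both EnR libraries and at 10771 in Fezf2+/+ bc201, and at 58.9 or less in all others. Ddx3y, on the Y chromosome, was at 1169 to 1600 in those others and at 4.22 or less in these 3. Thus every Fezf2-/- library was Ddx3y-high and both EnR libraries were Xist-high, and transgene and sex-linked expression cannot be told apart in the comparison of EnR with Fezf2-/-. The summed value of the 8 striatal projection neuron markers measured was 3611 in Fezf2-/- bc204 and 2611 in EnR bc208, against 1034 to 1798 in the other 7 libraries. Ppp1r1b alone was at 856 to 1084 in Fezf2+/+, 272 to 858 in Fezf2-/-, and 973 and 684 in EnR. Its log2 difference in Fezf2-/- was -1.10 (limma adjusted p = 0.183, not called), while 7 markers had a positive difference. Whether genotype had a part in the sum was not tested. Pups came from 3 litters: m1 gave Fezf2+/+ bc201 and bc202 and Fezf2-/- bc205 and bc206, m2 gave Fezf2+/+ bc203 and EnR bc209, and m3 gave Fezf2-/- bc204 and bc207 and EnR bc208. As whole cortex was sequenced, fewer cells of a type and less RNA per cell cannot be told apart in any value that follows.

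The 9 genes spanned a wide range of levels in the Fezf2+/+ cortex. Exon length here counts every annotated exon base of a gene (1026 bases for Pcp4, 13296 for Etv1), so the order also rests on the annotation. Per kilobase of exon, Ldb2 was highest, with a normalized value of 1043 ± 97.8 (SD, n = 3). S100a10 (579 ± 143) and Pcp4 (518 ± 22.5) came next and overlapped. Crim1 (168 ± 14.9) and Igfbp4 (155 ± 10.2) overlapped as well and were followed by Etv1 (110 ± 4.54). Crym (79.3 ± 12.6) and Adcyap1 (62.1 ± 5.62) overlapped, and Diaph3 was lowest (17.2 to 27.2). Diaph3 rested on 74 to 179 reads in a library and Crym on 65 to 433, whereas Ldb2 had 2362 to 4563.

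**Figure D1:**
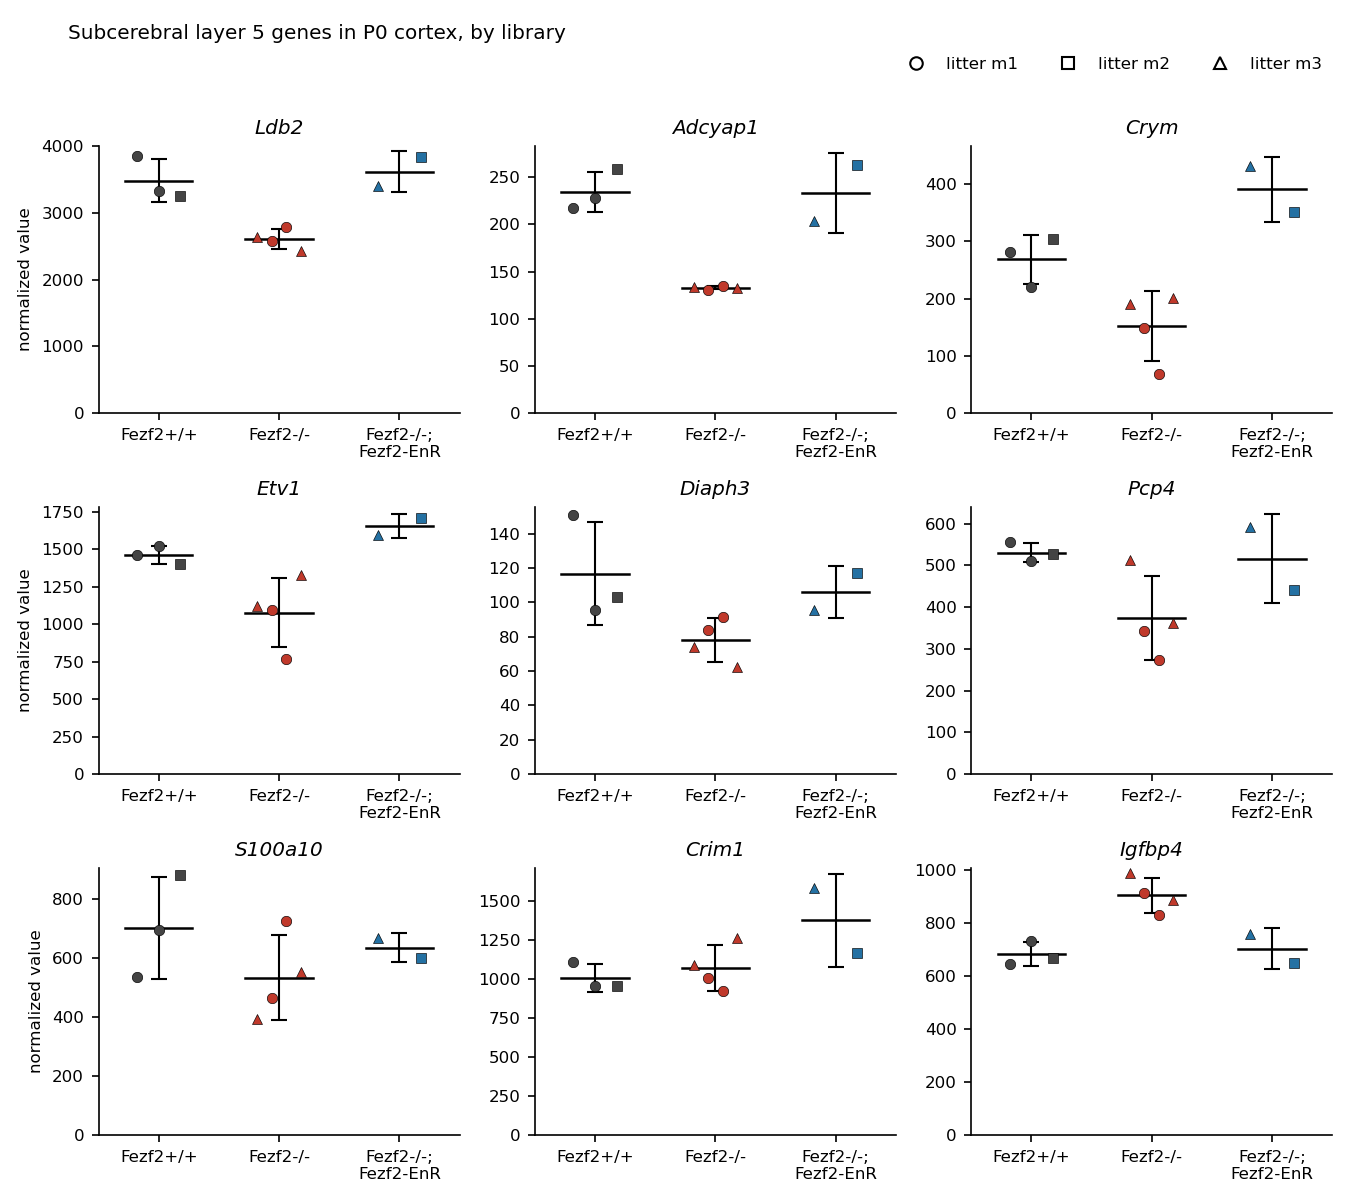
Normalized value (vertical axis, from 0) of each of the 9 genes in each library, by genotype; horizontal bars are group means, error bars 1 SD, and symbols mark the litters (circles m1, squares m2, triangles m3). All Fezf2-/- libraries lie below all Fezf2+/+ libraries for Ldb2, Adcyap1, Crym, Etv1 and Diaph3, and above them for Igfbp4.

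The first question was which of these genes depend on Fezf2, and it was addressed by comparing Fezf2-/- with Fezf2+/+ cortex. Ldb2 and Adcyap1 fell, that is, 2 of the 9 genes passed the test over all 16197 genes tested, both lower in Fezf2-/-. Over all tested genes 0.858% were called and 0.346% were called lower. The other 7 genes did not pass. At an unadjusted p under 0.05, 7 of the 9 genes were counted (6 lower and Igfbp4 higher), against 10.8% of all genes tested. The median log2 difference was -0.47 over the 9 genes and 0 over all genes tested. All Fezf2-/- libraries were below all Fezf2+/+ libraries for 5 of the 9 genes, where 6.46% of all genes tested showed this, and above them for 1 gene, where 6.53% did. Which members show this order is described gene by gene. The 9 genes were chosen with earlier results of these data known. Ldb2, Adcyap1 and Crym are also labelled in the study's display of these libraries. The counts are therefore set beside the shares over all genes as description, and are no independent evidence of direction. With 3 against 4 libraries, the exact two-sided permutation test has 35 allocations, and the smallest p it can give is 0.0286. These allocations exchange pups across litters, although m2 held no Fezf2-/- and m3 no Fezf2+/+ pup.

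Adcyap1 (GRCm38 chr17:93199017-93206537, plus strand) encodes the neuropeptide PACAP. Its normalized values were 217, 228 and 258 in Fezf2+/+ and 134, 131, 134 and 133 in Fezf2-/-, and 203 and 263 in the EnR libraries. The 4 Fezf2-/- libraries were nearly identical, with a coefficient of variation of 1.2%, and lay well under the lowest Fezf2+/+ library. They rested on 120 to 160 reads each. Counting alone spreads values more than this, so the closeness is not taken as a property of the gene. Adcyap1 fell by 0.81 on the log2 scale (SE 0.11, limma adjusted p = 0.00593, exact permutation p = 0.0286), which corresponds to 0.567 times the Fezf2+/+ mean. Within litter m1 the difference was -0.74 (limma adjusted p = 0.0198). Leaving out any 1 library kept the call, with log2 differences of -0.86 to -0.74 and an adjusted p of at most 0.0377, and in the 6 Ddx3y-high libraries alone the difference was -0.86 (adjusted p = 0.0159).

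Ldb2 (chr5:44472132-44799680, minus strand) is a LIM-domain-binding cofactor that bridges LIM-homeodomain transcription factors. Its values were 3855, 3332 and 3255 in Fezf2+/+, 2644, 2574, 2793 and 2420 in Fezf2-/-, and 3399 and 3835 in the EnR libraries. Every Fezf2-/- library was below every other library. Ldb2 fell by 0.41 on the log2 scale (SE 0.08, limma adjusted p = 0.0361, exact permutation p = 0.0286). The highest Fezf2+/+ value was that of bc201, the Xist-high library of that group. The direction held in every fit, but the call was lost with litter as a block (-0.37, adjusted p = 0.0911) and in the 6 Ddx3y-high libraries alone (-0.34, adjusted p = 0.098). With Fezf2-/- bc204 and EnR bc208 left out it was -0.42 and not called (adjusted p = 0.0656). It was also lost without Fezf2+/+ bc201 (adjusted p = 0.166), bc202 (0.126) or bc203 (0.0585), and without Fezf2-/- bc204 (0.0855), bc205 (0.107), bc206 (0.0531) or bc207 (0.0961). Within litter m1 alone the difference was -0.42 (limma adjusted p = 0.0434).

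Etv1 (chr12:38779380-38870484, plus strand) is an ETS-family transcription factor of layer 5 neurons. Its values were 1462, 1524 and 1404 in Fezf2+/+ and 1119, 1095, 769 and 1327 in Fezf2-/-. The groups did not overlap, and bc206 was the lowest library. The log2 difference was -0.47 (SE 0.15, 95% confidence interval -0.79 to -0.15, limma adjusted p = 0.255, exact permutation p = 0.0571). Within litter m1 it was -0.70 (limma adjusted p = 0.0511), and without bc206 it was -0.31.

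Crym (chr7:120186380-120202111, minus strand) encodes mu-crystallin, which binds thyroid hormone and labels corticospinal neurons. It had values of 282, 221 and 304 in Fezf2+/+, 191, 149, 67.8 and 201 in Fezf2-/-, and 431 and 351 in the EnR libraries. The Fezf2-/- libraries were all below the Fezf2+/+ libraries but spread widely, with a coefficient of variation of 39.8%, and bc206 was again the lowest. The log2 difference was -0.92 (SE 0.32, 95% confidence interval -1.62 to -0.22, limma adjusted p = 0.309, exact permutation p = 0.0857). It was -0.57 without bc206, -1.30 within litter m1 and -1.22 with litter as a block, and was called in none of these fits.

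Diaph3 (chr14:86655367-87141235, minus strand, the chromosome that also carries Fezf2) is a formin that nucleates actin filaments and acts in dividing cells and in cell protrusions. Its values were 151, 95.7 and 103 in Fezf2+/+ and 74.3, 83.9, 91.7 and 62.3 in Fezf2-/-. The groups were separated only narrowly, with the highest Fezf2-/- library close to the lowest Fezf2+/+ library. The log2 difference was -0.56 (SE 0.19, 95% confidence interval -0.98 to -0.14, limma adjusted p = 0.305, exact permutation p = 0.0571). Without the high, Xist-high Fezf2+/+ bc201 it was -0.36, and within litter m1 -0.45.

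Pcp4 encodes a small calmodulin-binding peptide found in corticospinal neurons and also in other brain regions, the striatum among them. Its values were 556, 510 and 527 in Fezf2+/+, 513, 342, 274 and 363 in Fezf2-/-, and 591 and 440 in the EnR libraries. The libraries bc205, bc206 and bc207 were far below Fezf2+/+, while bc204 lay within the Fezf2+/+ range. The log2 difference was -0.54 over all libraries (SE 0.18, 95% confidence interval -0.94 to -0.15, limma adjusted p = 0.288, exact permutation p = 0.0857). The 2 libraries with the highest striatal marker sums, Fezf2-/- bc204 and EnR bc208, held the highest Pcp4 value of their own group. With both left out, an alternative chosen after seeing the data, Pcp4 was called lower (-0.71, limma adjusted p = 0.0326). Since bc208 is in neither group compared, it enters only through the shared estimate of the spread, and without bc204 alone the same difference was not called (adjusted p = 0.0615). It was called as well with litter as a block (-0.78, adjusted p = 0.0397) and within litter m1, which holds neither library (-0.80, adjusted p = 0.0137). The part of striatal tissue in the Pcp4 values was not tested.

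**Figure D2:**
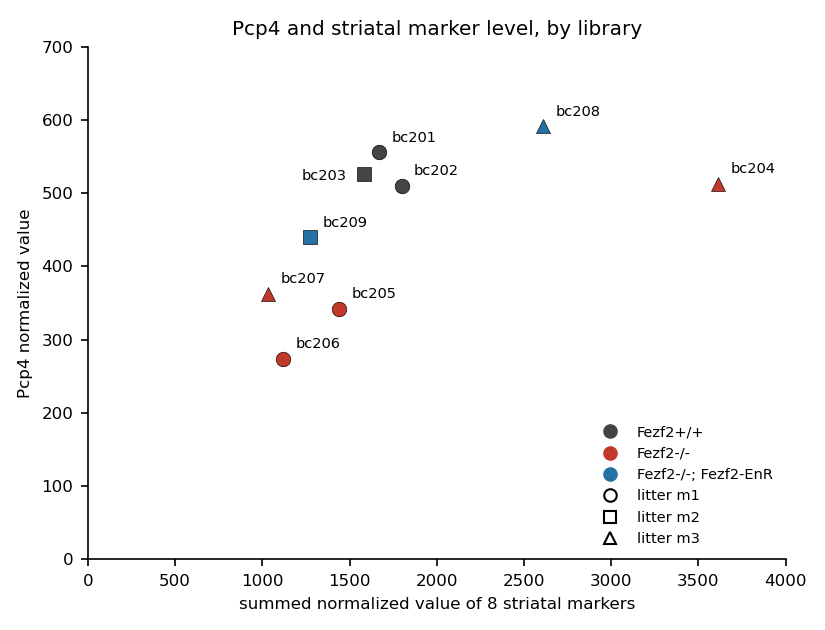
Normalized value of Pcp4 (vertical axis) against the summed normalized value of 8 striatal projection neuron markers (horizontal axis) in each of the 9 libraries; colours are genotypes and symbols litters. Among the Fezf2-/- libraries, bc204 has both the highest marker sum (3611) and the highest Pcp4 value (513), and the other 3 lie at 274 to 363 for Pcp4.

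One more limit applies to Pcp4. The gene (GRCm38 chr16:96467606-96525793, plus strand) shares exons, the last among them, with a transcript of Igsf5 on the same strand, so that reads there could have been given to either. Igsf5 ran at 0.593 to 0.67 of the Pcp4 value in all 9 libraries, and its own values therefore rose and fell with those of Pcp4. Crim1 likewise shares exon sequence with Fez2, on the opposite strand, and the sources used here do not state whether strand was used in counting. The values of Pcp4 and Crim1 are uncertain to this extent.

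S100a10, the p11 protein that pairs with annexin A2, overlapped between the groups, with 534, 692 and 879 in Fezf2+/+ and 394, 464, 724 and 550 in Fezf2-/-. Its log2 difference was -0.40 (95% confidence interval -0.85 to 0.05, limma adjusted p = 0.523), and within litter m1 it was only -0.07. Crim1, a transmembrane protein with BMP-binding repeats that marks corticospinal neurons, had values of 1112, 956 and 958 in Fezf2+/+ and 1090, 1009, 926 and 1267 in Fezf2-/-. The groups overlapped, and the log2 difference was 0.08 (95% confidence interval -0.20 to 0.36, limma adjusted p = 0.856). A fall of Crim1 as large as that of Adcyap1 lies outside this interval.

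Igfbp4 was the one gene of the 9 that was higher in every Fezf2-/- library. It lies at chr11:99041244-99054392 on the plus strand and encodes a secreted protein that binds insulin-like growth factors. Its values were 646, 733 and 670 in Fezf2+/+, 990, 913, 832 and 887 in Fezf2-/-, and 758 and 650 in the EnR libraries. The Fezf2-/- libraries were above all 5 others. The log2 difference was 0.41 (SE 0.08, 95% confidence interval 0.22 to 0.59), which did not pass in limma (adjusted p = 0.0635) and had an exact permutation p of 0.0286. It was called by DESeq2 (adjusted p = 0.00298), with the 2 groups alone (limma, 0.0386), and without EnR bc208 (0.0392) or bc209 (0.0387). Within litter m1 the difference was 0.34 (limma adjusted p = 0.142).

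**Figure D3:**
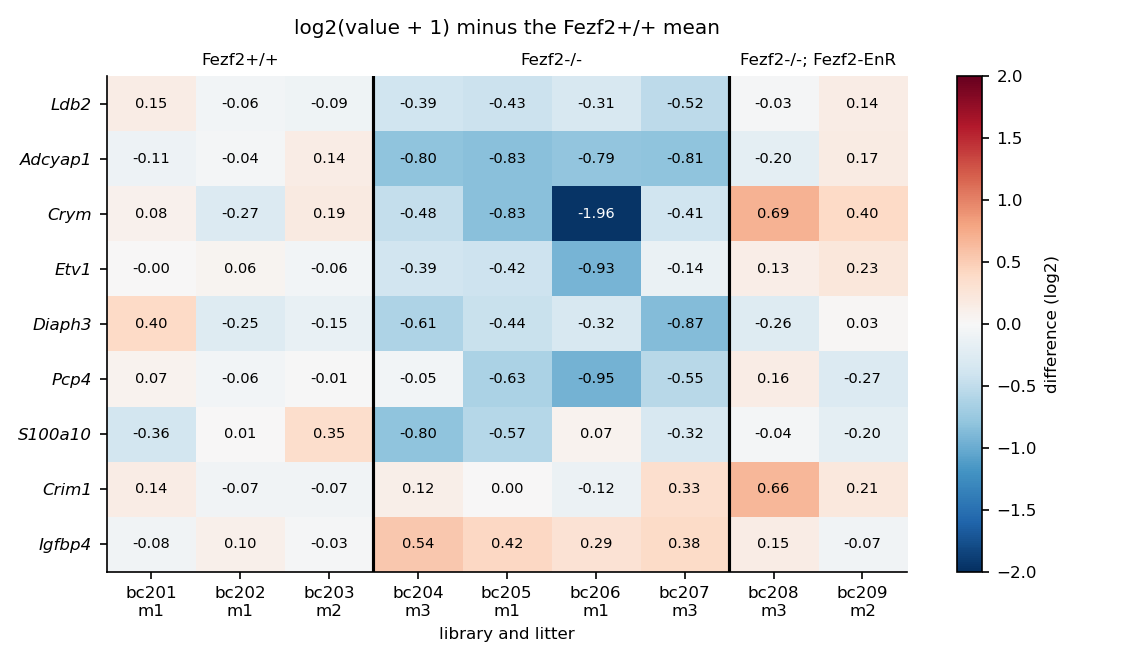
Deviation of each gene (rows) in each library (columns, with litter) from the Fezf2+/+ mean, in log2(value + 1) units; blue is lower and red higher. In each Fezf2-/- library 7 of the 9 genes lie below the Fezf2+/+ mean; Crym in bc206 (-1.96) is the lowest deviation shown and Adcyap1 (-0.83 to -0.79) varies least among the Fezf2-/- libraries.

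The 4 Fezf2-/- libraries did not order the genes alike. Library bc206 was the lowest of the 4 for Crym, Pcp4, Igfbp4, Crim1 and Etv1, and the highest for Ldb2, Adcyap1, Diaph3 and S100a10. The summed value of the 9 genes was 6612 to 7210 in the Fezf2-/- libraries, below the Fezf2+/+ range of 8293 to 8816. The sum is carried mainly by Ldb2, Etv1 and Crim1, which have the largest normalized values of the set.

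The promoters of Adcyap1, a member called lower in Fezf2-/-, and of Igfbp4, the member of opposite direction, are shown to compare their starts. The table of RefSeq promoters (GRCm38.p6) held entries for 6 of the 9 genes and none for Ldb2, Crym and S100a10. Each stretch is the 250 bases before an annotated start, 5′ to 3′ on the plus strand, at chr17:93198767-93199016 for Adcyap1 and chr11:99040994-99041243 for Igfbp4, with any TATAAA in capitals.
Adcyap1: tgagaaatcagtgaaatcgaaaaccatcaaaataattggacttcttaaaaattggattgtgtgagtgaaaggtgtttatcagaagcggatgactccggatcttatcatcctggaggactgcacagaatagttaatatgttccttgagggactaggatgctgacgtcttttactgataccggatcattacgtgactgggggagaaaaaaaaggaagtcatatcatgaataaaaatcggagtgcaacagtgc
Igfbp4: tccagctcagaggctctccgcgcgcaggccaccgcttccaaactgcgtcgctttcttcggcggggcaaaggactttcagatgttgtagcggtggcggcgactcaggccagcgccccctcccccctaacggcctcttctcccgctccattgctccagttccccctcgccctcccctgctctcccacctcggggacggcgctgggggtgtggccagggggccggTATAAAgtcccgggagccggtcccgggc
The Igfbp4 stretch is 69.2% G or C and holds 1 TATAAA, the TATA box motif, shortly before the start. The Adcyap1 stretch is 39.6% G or C, against a median of 52.4% over 32817 promoters of this length, and holds no TATAAA, although the window of a second annotated Adcyap1 start holds 1. TATAAA was present on either strand in 12.4% of these promoters. The other motifs searched on both strands, GGGCGG (32.7% of promoters), CAGCTG (13.0%) and TAATTA (4.8%), were in neither stretch.

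The second question was whether the repressor form of FEZF2 restores the levels, and EnR was compared with Fezf2-/- cortex. Adcyap1 and Ldb2, the same 2 genes, were called higher in EnR, with 0.766% of all genes tested called and 0.333% called higher. The comparison shares the Fezf2-/- libraries with the previous one, so the opposite signs are not independent of it. At an unadjusted p under 0.05, 7 of the 9 genes were counted, against 16.9% of all genes tested. Both EnR libraries were above all Fezf2-/- libraries for Ldb2, Crym, Adcyap1, Diaph3 and Etv1 (background 12%) and below them for Igfbp4 (background 12.6%). The median log2 difference was 0.47 over the 9 genes and 0.003 over all genes tested.

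Adcyap1 was higher by 0.79 on the log2 scale (SE 0.13, limma adjusted p = 0.0244). The call was lost with the 2 groups alone (adjusted p = 0.0634) and without Fezf2-/- bc205 (0.072), Fezf2-/- bc206 (0.0551) or EnR bc209 (0.285, difference 0.61). Ldb2 was higher by 0.47 (SE 0.09, limma adjusted p = 0.0395). This call was lost with the 2 groups alone (0.0651), with litter as a block (0.052), and without Fezf2+/+ bc202 (0.0689), Fezf2-/- bc204 (0.0693), bc205 (0.114), bc206 (0.0633) or bc207 (0.0739), or EnR bc209 (0.47, difference 0.38). With bc204 and bc208 left out, both genes stayed called, at 0.98 for Adcyap1 (limma adjusted p = 0.0143) and 0.57 for Ldb2 (0.0321). Within litter m3, where 1 EnR pup can be set beside 2 Fezf2-/- litter mates without a test, the difference was 0.60 for Adcyap1 and 0.43 for Ldb2.

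Crym had the largest difference of the 9 genes, 1.46 on the log2 scale, but also the widest error (SE 0.36, 95% confidence interval 0.67 to 2.26, limma adjusted p = 0.106). It was called without Fezf2-/- bc206 (1.12, adjusted p = 0.0333) and by DESeq2 (1.36, adjusted p = 0.00144), and was 1.13 within litter m3. Etv1, at 1599 and 1711 in the EnR libraries, differed by 0.64 (SE 0.16, limma adjusted p = 0.115), was called by DESeq2 (adjusted p = 0.00991), and differed by 0.39 within litter m3. Igfbp4 differed by -0.36 (SE 0.10, limma adjusted p = 0.125). It was called lower by DESeq2 (adjusted p = 0.0383) and without EnR bc208 (-0.47, limma adjusted p = 0.0388), and differed by -0.31 within litter m3. For Diaph3 (95.6 and 117 in EnR), Pcp4, S100a10 (668 and 600) and Crim1 (1588 and 1166), the log2 differences were 0.45, 0.49, 0.29 and 0.35, with limma adjusted p of 0.254 to 0.554.

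**Figure D4:**
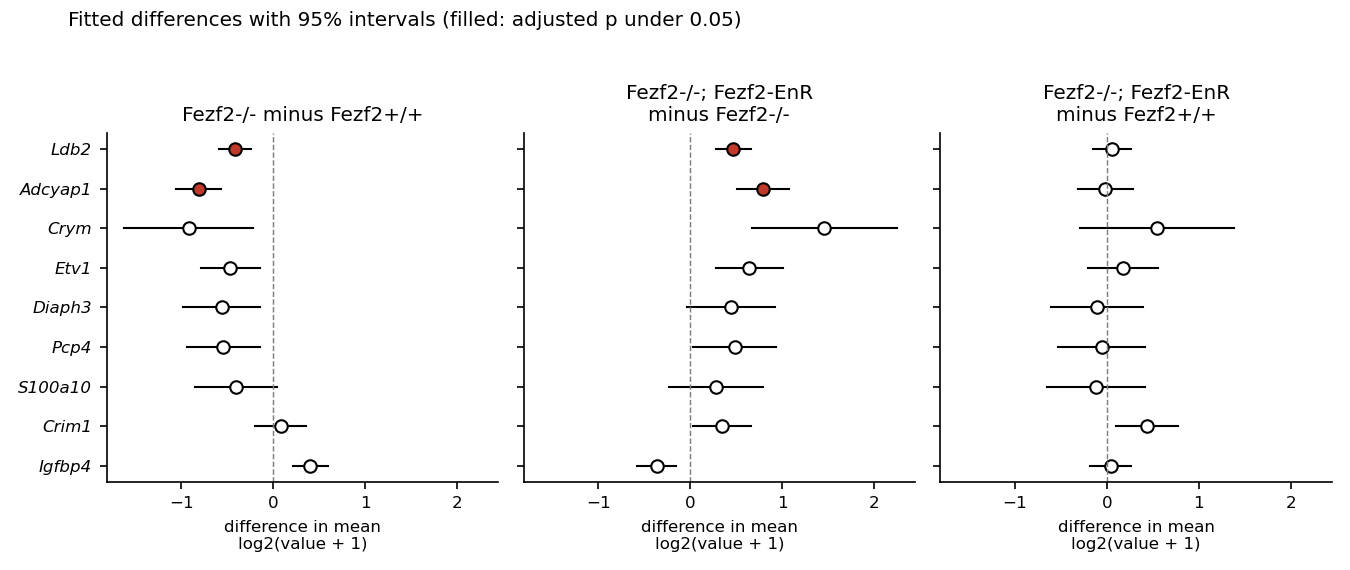
Fitted difference in mean log2(value + 1) of each gene (points) with its 95% confidence interval (lines) in the 3 comparisons; filled points have a limma adjusted p under 0.05. Filled are Ldb2 (-0.41) and Adcyap1 (-0.81) in Fezf2-/- minus Fezf2+/+ and the same genes (0.47 and 0.79) in EnR minus Fezf2-/-, and no point is filled in EnR minus Fezf2+/+.

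In the third comparison, of EnR with Fezf2+/+, limma called none of the 9 genes (0 of 9) and 0.117% of all genes tested, and neither edgeR nor DESeq2 called any of the 9. At an unadjusted p under 0.05 there was 1 gene, Crim1, against 19.3% of all genes. The log2 difference was -0.02 for Adcyap1 (95% confidence interval -0.31 to 0.28), 0.06 for Ldb2 (-0.15 to 0.26) and 0.04 for Igfbp4 (-0.18 to 0.26). These 3 intervals leave out changes as large as the ones between Fezf2-/- and Fezf2+/+ in the same genes. Their width comes from the spread over all 9 libraries. Both EnR libraries were Xist-high, as was only bc201 in Fezf2+/+, so sex-linked expression was not balanced here either. Both EnR libraries were above all Fezf2+/+ libraries for Crym, Crim1 and Etv1, where 17.3% of all genes showed this order. Crim1 was at 1588 and 1166 in EnR, against at most 1112 in Fezf2+/+ (log2 difference 0.44, 95% confidence interval 0.10 to 0.77, limma adjusted p = 0.173), and its higher EnR library was bc208, the one with the high striatal marker sum. With bc204 and bc208 left out it was 0.21. For Crym the difference was 0.54 (95% confidence interval -0.29 to 1.38) and for Etv1 0.18 (-0.21 to 0.56). With litter as a block these were 0.041 and 0.021. The only litter with both genotypes, m2, had 1 pup of each, which differed by 0.03 for Adcyap1, 0.24 for Ldb2, 0.21 for Crym, 0.29 for Etv1 and 0.28 for Crim1. Of this pair, EnR bc209 was Xist-high and Fezf2+/+ bc203 Ddx3y-high. In m2 S100a10 differed by -0.55, where the difference over all libraries was -0.12, and Pcp4 by -0.26, where it was -0.06.

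The binding partners and relatives of the 9 gene products were then examined as a list of 31 genes, of which 30 were tested and Igfbp6 was too low (1.04 to 5.97). Between Fezf2-/- and Fezf2+/+, 2 of the 30 were called higher and 0 lower (3 and 1 at an unadjusted p under 0.05), and their median log2 difference was -0.04, beside 0 over all genes tested. The 2 called genes were Adcyap1r1 and Igf1, and 0.512% of all genes tested were called higher. At an unadjusted p the 4 of 30 lie near the 10.8% of all genes tested. Adcyap1r1, the PAC1 receptor of PACAP, was at 3700, 4026 and 3189 in Fezf2+/+, at 4641, 4788, 4993 and 4931 in Fezf2-/-, and at 3627 and 3411 in EnR. The Fezf2-/- libraries were all above the others, in the order opposite to that of the ligand gene. Adcyap1r1 rose by 0.42 on the log2 scale in Fezf2-/- (SE 0.08, limma adjusted p = 0.0298) and fell by 0.46 in EnR relative to Fezf2-/- (adjusted p = 0.0395). The first call was lost without Fezf2+/+ bc201 (0.11) or bc203 (0.0754, difference 0.33), or without Fezf2-/- bc204 (0.0609), bc205 (0.0883), bc206 (0.0829) or bc207 (0.0847). It was lost as well in the 6 Ddx3y-high libraries alone (0.115). The second was lost with litter as a block (0.0904) and without Fezf2+/+ bc201 (0.068), Fezf2-/- bc204 (0.0615), bc205 (0.106), bc206 (0.106) or bc207 (0.0781), or EnR bc209 (0.411). Vipr1, a receptor shared by VIP and PACAP, was lowly expressed, at 34.6 to 37.9 in Fezf2+/+, 58.8 to 64.8 in Fezf2-/- and 31.9 and 20.8 in EnR. Its log2 difference in Fezf2-/- was 0.76 (limma adjusted p = 0.0922), called without EnR bc208 (0.0336) or bc209 (0.032), and it fell by 1.23 in EnR relative to Fezf2-/- (adjusted p = 0.0217). That fall was not called without Fezf2-/- bc205 (0.0661), bc206 (0.0544) or bc207 (0.0503), or EnR bc209 (0.222).

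Among the insulin-like growth factor genes, Igf1 was at 299, 225 and 256 in Fezf2+/+, at 480, 446, 420 and 543 in Fezf2-/-, and at 434 and 258 in EnR. It rose by 0.86 on the log2 scale in Fezf2-/- (SE 0.17, limma adjusted p = 0.0478), alongside the higher values of Igfbp4. This adjusted p was close to the threshold and was passed in neither edgeR (0.0521) nor the fit with litter as a block (0.0813), nor without Fezf2+/+ bc201 (0.0882), bc202 (0.254) or bc203 (0.141), or Fezf2-/- bc204 (0.123), bc205 (0.107), bc206 (0.0699) or bc207 (0.132). Igfbp3, another binding protein of the family, ran the other way, at 860 to 923 in Fezf2+/+, 524 to 747 in Fezf2-/- and 933 and 1241 in EnR. Its log2 difference was -0.51 in Fezf2-/- (limma adjusted p = 0.136), and it rose by 0.79 in EnR relative to Fezf2-/- (adjusted p = 0.0389). The rise was called in only 2 of the 9 fits that left out 1 library, those without Fezf2-/- bc206 and without EnR bc208, and the adjusted p was highest without EnR bc209 (0.492). Igfbp2, Igfbp5 and Igfbp7 and the receptor gene Igf1r had log2 differences of -0.15, -0.04, -0.15 and 0.04 in Fezf2-/-. The Ldb2 relative Ldb1 and the LIM partners of Ldb2 (Lmo3, Lmo4, Lhx2) had no call in any of the 3 comparisons. Nor had the calmodulin genes beside Pcp4 and the Etv1 relatives Etv4 and Etv5. In EnR relative to Fezf2-/-, 1 of the 30 was called higher and 2 lower, as named above, against 0.333% and 0.432% of all genes tested. At an unadjusted p under 0.05 there were 5 higher and 5 lower, against 16.9% of all genes in either direction.

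**Figure D5:**
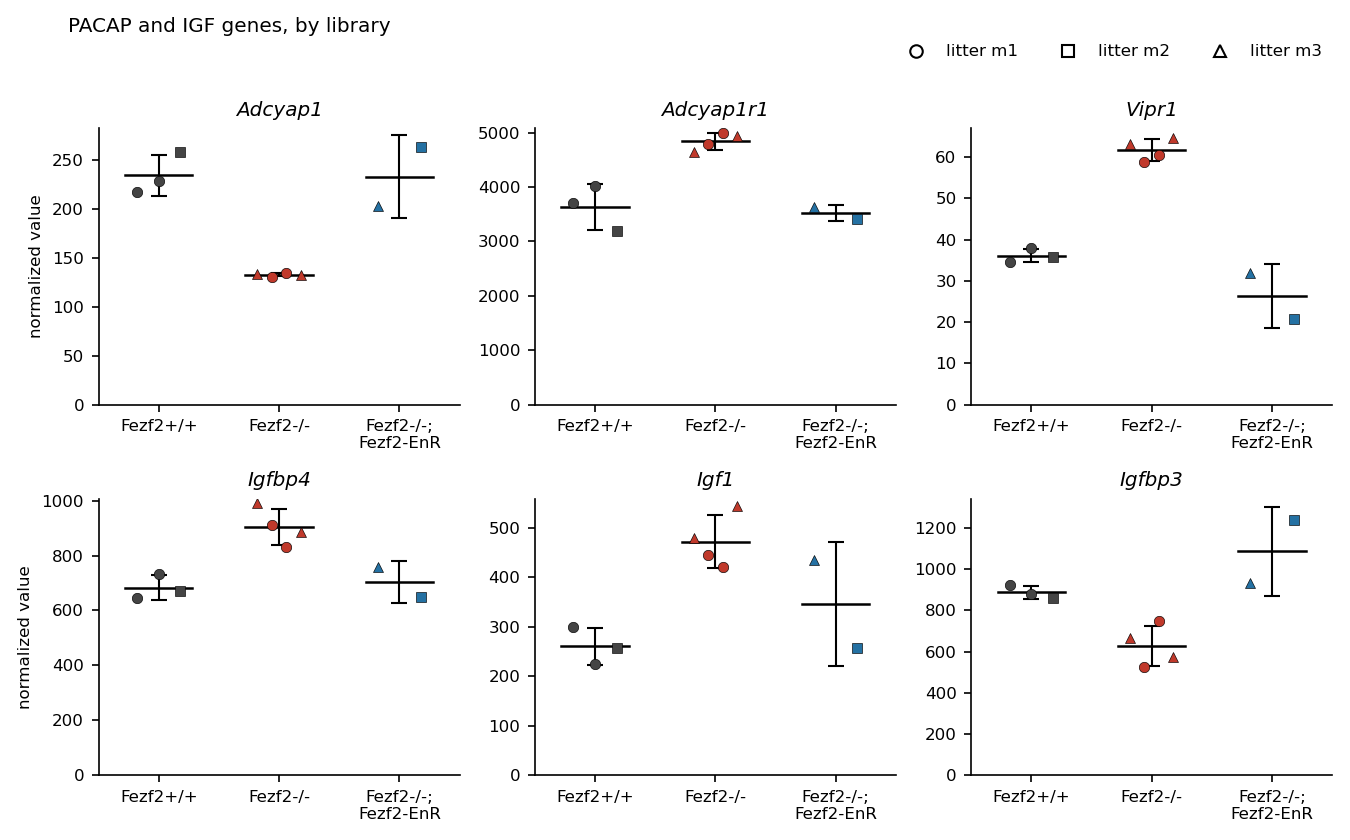
Normalized value (vertical axis, from 0) of Adcyap1, its receptor genes Adcyap1r1 and Vipr1, and Igfbp4, Igf1 and Igfbp3 in each library, by genotype, with group means, 1 SD and litter symbols. Adcyap1 is lowest and Adcyap1r1 highest in the 4 Fezf2-/- libraries (4641 to 4993, against 3189 to 4026 elsewhere).

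Other genes of subcerebral layer 5 neurons did not move as one list. Of 19 such genes, 3 were called lower in Fezf2-/- and 0 higher, with 5 higher and 5 lower at an unadjusted p under 0.05. A positive difference was found for 10 and a negative one for 9 (median 0.14). Over all genes tested, 0.346% were called lower, and 10.8% were counted at an unadjusted p in either direction. Tcerg1l fell from 750 to 877 in Fezf2+/+ to 162 to 197 in Fezf2-/- (log2 difference -2.20, limma adjusted p = 8.92e-07). Ephb1, an ephrin receptor of axon guidance, fell from 2007 to 2375 to 1092 to 1385 (-0.82, adjusted p = 0.00089). Bhlhe22, a transcription factor also known as Bhlhb5, fell from 7090 to 7679 to 4974 to 5681 (-0.45, adjusted p = 0.0432), a call lost with litter as a block (-0.34, adjusted p = 0.0856) and without Fezf2+/+ bc201 (0.118), bc202 (0.214) or bc203 (0.154), or Fezf2-/- bc204 (0.113), bc205 (0.11), bc206 (0.0736) or bc207 (0.0878). In EnR relative to Fezf2-/-, 2 of the 19 were called higher and 0 lower: Tcerg1l (2.04) and Ephb1 (0.89). Over all genes tested 0.333% were called higher. Tcerg1l, Ephb1, Tmem163 and Sema3e, like Ldb2, Crym and Adcyap1, are labelled by the study in its display of these same libraries and are no independent evidence of direction. For Ldb2, Tcerg1l and Ephb1 the study also reported in situ hybridization, with a lower signal in Fezf2-/- that returned in EnR.

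Bcl11b, the CTIP2 transcription factor of subcerebral neurons and of the striatum, had values of 4241, 4137 and 4198 in Fezf2+/+, 5287, 3591, 2821 and 4193 in Fezf2-/-, and 5909 and 4686 in EnR. Its Fezf2-/- libraries spread to both sides of the Fezf2+/+ values (log2 difference -0.11, limma adjusted p = 0.85). As for Pcp4, bc204 and bc208, the libraries with the highest striatal marker sums, were the highest of their groups, and the part of striatal tissue was not tested.

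Lists of other cell types were measured on the same libraries. Over all genes tested, 0.512% were called higher and 0.346% lower in Fezf2-/-, and 10.8% were counted at an unadjusted p under 0.05. In EnR relative to Fezf2-/-, 0.333% were called higher and 0.432% lower. Of 9 corticothalamic genes, which mark the layer 6 neurons that also express Fezf2, 7 were called lower in Fezf2-/- (median -1.44) and 6 higher in EnR relative to Fezf2-/-. Their summed value was 15515 to 16920 in Fezf2-/-, against 25194 to 26480 in Fezf2+/+. Kctd12, Wnt7b, Tle4, Nxph3, Zfpm2 and Gsg1l of this list, and Mdga1 and Btbd3 of the next, are labelled by the study on these same libraries and are no independent evidence of direction. For Wnt7b the study also reported in situ hybridization with the same direction. Of 9 callosal and upper layer genes, 1 was called higher in Fezf2-/- and 1 lower in EnR relative to Fezf2-/-. None of the 8 interneuron markers was called by limma (0 of 8), but 7 were higher in Fezf2-/- at an unadjusted p under 0.05, and their sum was 8540 to 9941 in Fezf2-/- against 6661 to 6995 in Fezf2+/+ and 6625 to 8025 in EnR. The proliferating cell markers were not called (0 of 8), with a sum of 2386 to 3136 in EnR, 1687 to 2448 in Fezf2-/- and 1493 to 2150 in Fezf2+/+. All 8 differences of EnR were positive against either group. At an unadjusted p under 0.05, 4 were higher than in Fezf2+/+ and 3 than in Fezf2-/-, where 19.3% and 16.9% of all genes were counted. Of the glutamatergic genes, 1 of 6 was called higher (Slc17a6) and 1 lower (Emx1) in Fezf2-/-. Of the 6 meningeal markers tested 1, Lum, was called lower in Fezf2-/-. No striatal, thalamic or endothelial marker was called by limma in that comparison (0 of 8, 0 of 3 and 0 of 8, with 2, 1 and 1 at an unadjusted p under 0.05). What part these other cells had in the values of the 9 genes was not tested.

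Finally, the genes with the most similar profile over the 9 libraries were found for the 2 called members, by the root mean square of the differences in log2 deviation. For Ldb2 these were RP23-143O13.1 (0.0642), Timp3 (0.0751) and Usp1 (0.0891), of which Timp3 went from 1327 in Fezf2+/+ to 1083 in Fezf2-/- and 1393 in EnR. None of these 3 was called between Fezf2-/- and Fezf2+/+ (limma adjusted p of 0.309 to 0.403). For Adcyap1 they were Fibin (0.118), Kctd12 (0.127) and Panct2 (0.149), of which Fibin was not called (adjusted p = 0.0613). Kctd12 went from 7254 in Fezf2+/+ to 4551 in Fezf2-/- and 8329 in EnR (log2 difference in Fezf2-/- -0.67, limma adjusted p = 0.0376) and belongs to the list of corticothalamic genes. Panct2, annotated as an antisense gene, whose reads may include those of the gene it overlaps, went from 120 to 59.5 and back to 101 (limma adjusted p = 0.00539 between Fezf2-/- and Fezf2+/+). All these genes were picked for their likeness to the member over the same libraries. A fall in Fezf2-/- and a return in EnR follow from that choice and are no separate evidence.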

How the data were processed

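Poly(A) RNA libraries (Illumina TruSeq) were prepared from the cortex of each of 9 pups. The submitters' processing notes name Bowtie, STAR, DESeq and the mm10 genome, without versions. The deposited table holds a signal, the gene counts that the authors divided by DESeq size factors. These values came out as whole multiples of 1 read in 100% of cases (tolerance 0.05), from which the reads of each library were recovered. Values were compared on log2(value + 1), for genes with a mean of at least 10 over the 9 libraries, with limma 3.58.1 (R 4.3.3, trended variance, a single fit of the 9 libraries with a term for each genotype), and calls were made at a Benjamini-Hochberg adjusted p under 0.05 over all genes tested. Fold changes of low genes are understated on this scale. The fit was tested on simulated data. Single genes were also compared by an exact two-sided permutation test.

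The text names the 9 genes, Fezf2, and those of the lists of related genes that were called in a comparison or stated as examples. The 9 genes and all lists were chosen with earlier results of these data known. Genes stated as examples without a call, among them Bcl11b, Igfbp2, Igfbp5, Igfbp7 and Igf1r, were chosen after their values were seen. Further genes without a call, among them Ldb1, Lmo3, Lmo4, Lhx2, Etv4, Etv5, Ppp1r1b, Neurod6, Mki67 and Top2a, are named to describe a list or the libraries. Tmem163, Sema3e and Btbd3 are named because the study labels them. Alternatives were pseudocounts of 0.1 and 10, other filters, TMM scaling, litter as a block, litters alone, libraries left out, and edgeR 4.0.16 and DESeq2 1.42.0 on the recovered reads. Gene positions and exon lengths are those of GENCODE M21. Promoter windows were cut to the 250 bases before the start, so that no transcribed base is included at that start. The labels give separate pups, so p-values rest on the spread between animals. The main fit has no term for litter or sex and treats litter mates as independent. Litters were unevenly shared among the genotypes, so differences between litters can enter the group differences and the spread. Drd1 was not found in the table.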

Additional observations from a re-analysis of the deposited data

How the results depend on the processing

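Over the alternatives run, the 9 genes kept their direction between Fezf2-/- and Fezf2+/+ except Crim1, which was -0.11 with litter as a block, -0.093 in litter m1 alone and -0.0004 to 0.15 with 1 library left out. No direction changed between EnR and Fezf2-/-. Between EnR and Fezf2+/+ small differences changed sign. With litter as a block, Diaph3 was 0.11 and Igfbp4 -0.0096. With bc204 and bc208 left out (chosen after seeing the data), Adcyap1 was 0.17, Diaph3 0.031 and Igfbp4 -0.070. In litter m2 alone, the values that changed sign were 0.028 for Adcyap1, 0.18 for Diaph3 and -0.044 for Igfbp4. With 1 library left out, the range was -0.030 to 0.14 for Ldb2, -0.20 to 0.17 for Adcyap1, -0.26 to 0.087 for Diaph3, -0.27 to 0.16 for Pcp4, -0.30 to 0.058 for S100a10 and -0.070 to 0.15 for Igfbp4.

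Of the 9 genes, limma called 2 in Fezf2-/- against Fezf2+/+, and 1 in the 6 Ddx3y-high libraries alone (chosen after seeing the data), 1 to 3 with 1 library left out and 7 at an unadjusted p. In EnR against Fezf2-/- it called 2, and 0 with the 2 groups alone, 1 with litter as a block, 0 to 3 with 1 library left out and 7 at an unadjusted p, while DESeq2 called 5. In EnR against Fezf2+/+ it called 0 (0 with any 1 library left out), and 1 at an unadjusted p. Over all genes, calls in Fezf2-/- against Fezf2+/+ were 139, but 221 with the 2 groups alone, 233 in litter m1, 315 by DESeq2, 81 in the 6 Ddx3y-high libraries, 1752 at an unadjusted p and 66 to 217 with 1 library left out. Calls in EnR against Fezf2-/- were 124, but 67 with the 2 groups alone, 450 by DESeq2, 809 without bc204 and bc208, 2741 at an unadjusted p and 21 to 1088 with 1 library left out. Calls in EnR against Fezf2+/+ were 19, but 10 with a mean of at least 50, 12 with the 2 groups alone, 32 with litter as a block, 641 by DESeq2, 276 without bc204 and bc208, 3118 at an unadjusted p and 8 to 491 with 1 library left out. The cause was not tested. No paired analysis was possible because the labels give no replicate number shared between genotypes, and litter was used as the block instead.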

Other observations

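Diaph3 is known for its part in cytokinesis, and its values were therefore set beside those of the proliferating cell markers in each library. The library with the highest Diaph3 value, Fezf2+/+ bc201 (151), had a marker sum of 2150, the highest of its group. In Fezf2-/-, bc204 had the highest marker sum (2448) with a Diaph3 value of 74.3, and bc206 the highest Diaph3 value (91.7) with a sum of 2001. In EnR, bc209 had the higher value of both (117 and 3136). Of these markers, Mki67 and Top2a were at 435 to 1046 and 520 to 1158 over the 9 libraries.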
